A study of Mus musculus with 26 samples.

Results

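The nuclear genes for subunits of oxidative phosphorylation were followed in mouse liver with and without the clock factors Bmal1 and Nr1d1, in the morning and in the evening of the internal day. They were chosen by symbol alone: every gene named Nduf with A, B, C, S or V and a number (complex I), Sdha to Sdhd (complex II), Uqcr (complex III), Cox4 to Cox8 (complex IV) or Atp5 (complex V, the ATP synthase), with the best expressed transcript standing for each gene. The rule found 86 of 22322 gene symbols, 37 in complex I, 4 in complex II, 8 in complex III, 19 in complex IV and 18 in complex V. Of the 86, 81 encode subunits. The other 5 match the rule by symbol but were not counted as subunits: Cox4nb, Atp5s, Atp5sl, the pseudogene Atp5l-ps1 and Cox7a2l, a factor that joins complexes III and IV. Ndufa4 is counted with complex I by its symbol, although its protein is now placed in complex IV.

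The complexes sit in the inner mitochondrial membrane. Complexes I and II take electrons from NADH and succinate, complex III passes them to cytochrome c, complex IV hands them to oxygen, and complex V makes ATP from the proton gradient that results. Most of the subunits are encoded in the nucleus, and liver relies on them to pay for gluconeogenesis, urea synthesis and fat oxidation. Bmal1, the product of Arntl, is the transcription activator at the top of the circadian clock and binds E-box DNA with its partner Clock. Nr1d1 (REV-ERB alpha) is a clock repressor that Bmal1 activates and that in turn represses Arntl.

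RNA-seq of 20 livers from mice aged 8 weeks was used. In the Bmal1 experiment, 3 control mice (strain C57BL/6) and 3 mice labelled Bmal1 knockout, which the treatment text calls liver-specific, were taken at each of CT0 and CT12, 12 livers in all. In the Nr1d1 experiment, 2 control mice and 2 mice labelled Nr1d1 knockout were taken at each time, 8 livers in all. All animals had lived in a cycle of 12 h light and 12 h dark, and then in darkness for the last 2 days, so CT0 is the hour at which lights had come on. The driver of the liver-specific deletion, the tissue range of the Nr1d1 allele and the sex of the animals are not stated in the labels. Nothing states that numbered replicates came from separate litters or days, and the p-values measure the spread between these livers.

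The targeted genes were read first. Arntl had 16.3, 15.7 and 15.7 RPKM (reads divided by transcript length in kilobases and by library size) in control livers at CT0 and 5.91, 5.73 and 7.45 RPKM in livers labelled Bmal1 knockout. At CT12 the order was turned, with 1.26, 0.68 and 1.21 RPKM in controls against 4.37, 3.59 and 4.01 RPKM. In the Nr1d1 experiment, the libraries labelled Nr1d1 knockout did not have less Nr1d1 RNA: 6.1 and 32.9 RPKM at CT0 and 11.1 and 28.4 RPKM at CT12 in replicates 1 and 2, against 0.374, 22 and 3.45, 33.4 RPKM in controls. Whether these transcripts cover the deleted part is not given, so the level of Nr1d1 cannot check the label. Every direction below from that experiment rests on the label. Arntl, which Nr1d1 represses, had 0.597 and 1.3 RPKM in controls at CT12 and 8 and 19.3 RPKM in these libraries (log2 difference 3.21, limma adjusted p = 0.0395). Both sets are therefore called by their labels. The read number that the RPKM were divided by, taken from the steps between low values, was 11.5 to 19.0 M in the Bmal1 experiment. It was 58.2 to 76.7 M in replicate 1 and 63.4 to 91.3 M in replicate 2 of the Nr1d1 experiment. There, replicate 2 alone is labelled paired-end. Its RPKM were 4.15 times those of replicate 1 for the median of all genes, so this divisor may not be its sequencing depth. Hepatocyte identity was plain, with Alb at 14012 to 37868 RPKM in the Bmal1 experiment, while the 6 muscle markers summed to at most 1.29 RPKM there.

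Promoters were searched for the letters of factors known to act on these genes. Windows from 250 bases before to 50 bases after a start were found in RefSeq (GRCm38.p6) for 66 of the 86 genes, and 5 motifs were searched on both strands. The YY1 motif AAGATGGCG, which contains an ATG, was in 7 of the 66 genes (10.6%) and in 1.64% of all 27025 genes with a window. In 6 of the 7 it began 23 to 36 bases after the start. These stretches are shown because the same 9 letters, in capitals, recur at nearly the same place in complexes I and V.
Atp5j2 (chr5:145191499-145191528, minus strand): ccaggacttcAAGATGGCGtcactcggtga
Ndufa9 (chr6:126849096-126849125, minus strand): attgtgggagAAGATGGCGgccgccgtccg
Ndufc1 (chr3:51408914-51408943, minus strand): cctgcggaacAAGATGGCGccgtccgtagt
Ndufs4 (chr13:114388045-114388069, minus strand): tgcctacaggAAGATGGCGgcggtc
Ndufs6 (chr13:73328433-73328459, minus strand): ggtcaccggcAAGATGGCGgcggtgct
Ndufs7 (chr10:80249463-80249492, plus strand): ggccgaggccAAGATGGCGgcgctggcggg

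The seventh, Atp5j, had the motif 88 bases before its start. The ETS motif CCGGAAG, bound by GABP, was in 16 of 66 genes (24.2%) against 9.93% of all genes. The palindromic NRF1 motif was in 5 (7.58%) against 1.07%, and AAGGTCA, the letters shared by ERR, ROR and REV-ERB receptors, was in 8 (12.1%) against 5.38%. The E-box CACGTG, the site of Bmal1 and Clock, was in 5 of 66 (7.58%), close to its share of 8.09% among all genes. A match is a run of letters and not a measured site, and the ETS and YY1 motifs can share letters where the end of the former is the start of the latter. The 5 E-boxes are printed because Bmal1 is the factor removed; capitals mark the E-box.
Atp5g1 (chr11:96075658-96075687, minus strand): agggactccgaaCACGTGggtgggggagct
Atp5g3 (chr2:73911547-73911576, minus strand): acccctgcctggCACGTGcaaggagcgagg
Atp5l (chr9:44920872-44920901, minus strand): ctcaggattcttCACGTGttatcgcgcctc
Ndufa7 (chr17:33824488-33824517, plus strand): gcggagaggagtCACGTGagcaggggatgc
Ndufv1 (chr19:4012907-4012936, minus strand): agcagagggcgaCACGTGagcctggtttac

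The subunit genes were among the most abundant RNAs of these livers. In the 6 control livers of the Bmal1 experiment, the median gene of the 80 that entered the tests had a mean of 102 RPKM and stood at percentile 97.2 of all symbols. By complex the median level was 70.4 RPKM for complex I, 129 for complex II, 132 for complex III, 143 for complex IV and 160 for complex V. The highest were Atp5b, the catalytic beta subunit of the ATP synthase, at 494 RPKM ± 39.8 (SD, n = 6), and Ndufa4 at 413 RPKM ± 18.4 (SD, n = 6). Atp5a1, which encodes the alpha subunit of the same catalytic head as Atp5b, had 353 RPKM and Cox4i1, the first nuclear subunit to join complex IV, had 325 RPKM.

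The tissue isoforms of complex IV fell into 2 sets with little between them. Cox4i1, Cox6a1 (166 RPKM), Cox6b1 (260 RPKM) and Cox8a (119 RPKM), the forms of most tissues, were high in the control livers. Cox4i2, the lung form, was listed at 0 RPKM in all control livers, and 2 knockout-labelled CT12 livers had 0.191 and 0.312 RPKM. Cox6a2, Cox6b2 and Cox8b, the heart, testis and muscle forms, averaged 0.0528, 0.118 and 0.0343 RPKM, and Cox8c and Cox7b2 were listed at 0 in all control livers of this experiment. Cox7a2 (143 RPKM) stood far above its muscle form Cox7a1 (1.97 RPKM), and Ndufa4 far above its hypoxia-induced relative Ndufa4l2 (0.446 RPKM). The 3 genes that encode the same mature c subunit of the ATP synthase ring were all in use, with Atp5g3 at 225, Atp5g1 at 146 and Atp5g2 at 98.1 RPKM. A filter at a mean of 0.5 RPKM per experiment removed Cox4i2, Cox6a2, Cox6b2, Cox7b2, Cox8b and Cox8c from the Bmal1 tests, and all but Cox8b of these from the Nr1d1 tests, which left 80 and 81 genes. The plot of levels shows the gap.

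**Figure D1:**
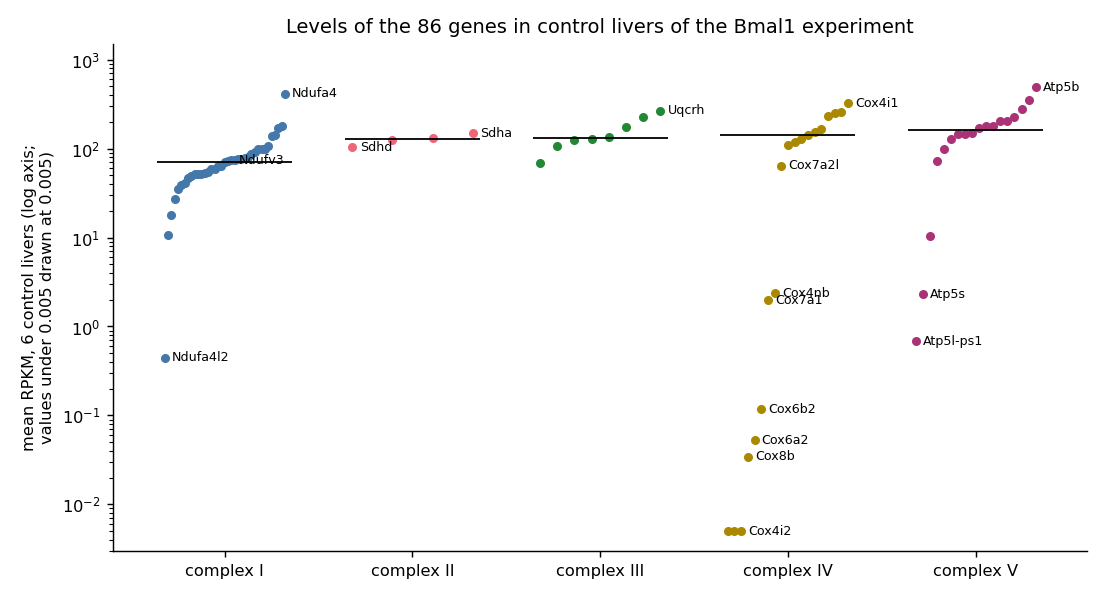
Mean RPKM of each of the 86 genes over the 6 control livers of the Bmal1 experiment (log axis, values under 0.005 drawn at 0.005), by complex, with the median of the tested genes as a line. Most genes lie between 10 and 494 RPKM, and the isoforms of other tissues in complex IV lie under 2 RPKM.

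Across the 12 livers of the Bmal1 experiment the genes kept a narrow range. The highest library was 1.37 times the lowest for the median gene, and 60 of 80 stayed under 1.5 times. The same ratio was 1.54 for the median of 2380 genes with a control mean of 20 RPKM or more. The genes with ratios over 2 were 4 at low levels: Atp5l-ps1, Cox7a1, Ndufa4l2 and Atp5s.

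Much of the spread that remained was shared by nearly all the genes at once. Summed over the 86 genes, control livers at CT0 had 9642, 9721 and 9864 RPKM, and livers labelled knockout at CT0 had 11440, 9654 and 9912 RPKM. At CT12 the sums were 10585, 9200 and 9480 RPKM in controls and 8975, 9304 and 10423 RPKM in livers labelled knockout. In 3 of the 4 groups 1 library stood above the other pair, and the ranges of all 4 groups met.

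The 3 libraries were high in every complex. In knockout-labelled CT0 replicate 1, 75 of 80 genes lay above their group mean, by a median of 0.15 on the log2 scale. In control CT12 replicate 1 this held for 73 genes (median 0.11), and in knockout-labelled CT12 replicate 3 for 74 genes (median 0.13). All genes of these libraries lay above their group means by medians of only 0.04, 0.04 and 0.03. Other mitochondrial families were high in knockout-labelled CT0 replicate 1 too: the 18 genes of the TCA cycle by 0.2 and the 76 mitochondrial ribosomal proteins by 0.11, whereas the 79 cytosolic ribosomal proteins lay below by a median of -0.07. Proteasome genes, which have no mitochondrial role, were also above (0.1). In the other two libraries the cytosolic ribosomal proteins lay above their group means as well, by 0.07 in control CT12 replicate 1 (72 of 79) and by 0.12 in knockout-labelled CT12 replicate 3 (75 of 79). The TCA cycle genes lay above by 0.12 and 0.08 there, and the mitochondrial ribosomal proteins by 0.09 and 0.07. The part of RNA quality or cell make-up in these shifts was not tested.

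**Figure D2:**
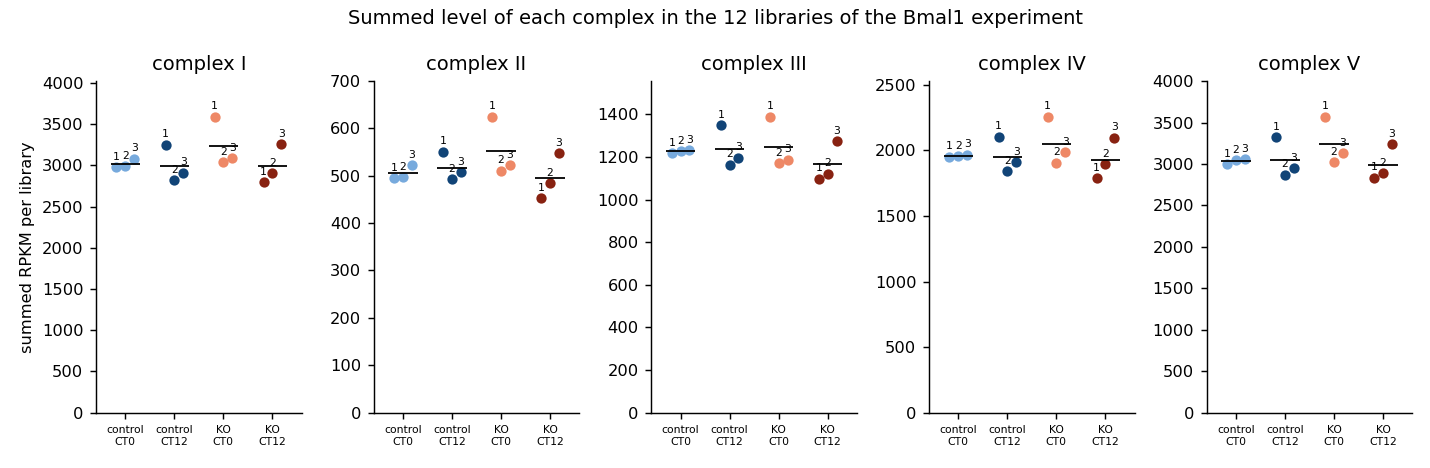
Summed RPKM of each complex in each library of the Bmal1 experiment, with replicate numbers beside the points and the group mean as a line; KO stands for livers labelled Bmal1 knockout. In all 5 complexes control CT12 replicate 1, KO CT0 replicate 1 and KO CT12 replicate 3 are the highest of their groups, and the groups overlap.

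At CT0, livers labelled Bmal1 knockout and control livers did not differ in any subunit gene past the threshold (limma, Benjamini-Hochberg adjusted p under 0.05), where 1.62% of 11439 genes did. Of the 80 genes, 9 had an unadjusted p under 0.05, beside 13.6% of all genes, and all 9 were higher in the knockout-labelled livers. The median log2 difference was 0.08, against 0.01 over all genes, and 60 of 80 differences were above 0. The medians by complex were 0.08 (I), 0.10 (II), 0.09 (III), 0.08 (IV) and 0.07 (V). The lean of the median and of the signs rested on the 1 high library. Without knockout-labelled CT0 replicate 1, 40 of 80 differences were above 0 and the median was 0.00. Of the 80 genes, 20 had knockout-labelled livers wholly above controls and 4 wholly below, beside 10.8% and 9.07% of all genes. Those 20 were above every control in the other knockout-labelled libraries too, so this count did not rest on the high library.

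The genes with the highest differences at CT0 were Ndufa12 and Cox7a2l. Ndufa12, an accessory subunit of the part of complex I that oxidizes NADH, had 52.4, 48.5 and 53.1 RPKM in controls and 78.1, 59.7 and 69.7 RPKM in knockout-labelled livers. The groups did not overlap. The log2 difference was 0.42 (SE 0.10, limma adjusted p = 0.0721). Cox7a2l had 60.2, 58.4 and 58.3 RPKM against 68.8, 83.5 and 79.5 RPKM, again without overlap, a log2 difference of 0.38 (SE 0.09, adjusted p = 0.0692). Cox7a2l was not highest in the library that lifted the other genes, and without that library its difference was 0.46 (limma adjusted p = 0.0454). The lowest were 2 genes at low levels, Cox7a1 (log2 difference -0.51, SE 0.38) and Atp5l-ps1 (-0.49, SE 0.29), whose ranges overlapped.

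The 4 genes of complex II were read in every comparison. At CT0, Sdhb, the iron-sulfur subunit, had 120, 119 and 126 RPKM in controls and 171, 132 and 141 RPKM in knockout-labelled livers, a log2 difference of 0.28 (SE 0.12, limma adjusted p = 0.312). Sdha, the flavoprotein that takes electrons from succinate, differed by 0.14. The membrane anchors Sdhc and Sdhd differed by 0.05 and -0.02.

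At CT12, 1 of the 80 genes differed past the threshold, Ndufv3, where 9.68% of all genes did and 6.46% were higher. At an unadjusted p under 0.05 there were 5 of the 80, beside 24% of all genes. Ndufv3 encodes a small accessory subunit of the NADH-oxidizing arm of complex I. It had 71.8, 68.5 and 57.6 RPKM in control livers and 94.3, 95.4 and 92.6 RPKM in livers labelled Bmal1 knockout. The knockout-labelled livers lay within a few RPKM of each other and wholly above the controls. Ndufv3 rose by 0.52 on the log2 scale, or 1.43-fold (SE 0.10, 95% interval 0.31 to 0.72, limma adjusted p = 0.005).

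Ndufv3 was also higher at CT0, with 86.7, 74.8 and 81.6 RPKM in controls against 105, 92.3 and 96.6 RPKM, but this difference of 0.28 missed the threshold (adjusted p = 0.208). The groups did not overlap there either. Between CT0 and CT12 the control values were lower at CT12 without overlap (log2 difference -0.30, limma adjusted p = 0.0683), while the knockout-labelled values differed by -0.06. The difference between the 2 time courses was 0.24 (95% interval -0.06 to 0.54, limma adjusted p = 0.527), so the time courses were not shown to differ. The gene has 2 transcripts in the tables. The second read 32.2, 29.4 and 24.6 RPKM in controls and 43.9, 42.5 and 42.3 RPKM in knockout-labelled livers at CT12, also without overlap. Reads shared by the 2 transcripts could count for both, so the second is not a separate measurement.

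The promoter of Ndufv3 is printed because it is the single subunit gene that passed between genotypes. The 250 bases before its start (GRCm38.p6, chr17:31519865-31520114, plus strand) held none of the 5 motifs, nor did the 50 bases after it.
Ndufv3: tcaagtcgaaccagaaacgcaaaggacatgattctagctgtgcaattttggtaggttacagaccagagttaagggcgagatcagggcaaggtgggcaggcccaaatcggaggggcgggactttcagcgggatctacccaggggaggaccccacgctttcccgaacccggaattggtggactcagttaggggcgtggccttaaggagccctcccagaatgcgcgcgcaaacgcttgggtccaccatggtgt

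Apart from Ndufv3 the complexes lay close to 0 at CT12. The median was -0.03 over the 80 genes, against 0.09 over all genes, and 33 of 80 differences were above 0. Complex medians were -0.04 (I), -0.01 (II), -0.07 (III), -0.00 (IV) and -0.04 (V). The 95% interval lay within 0.5 of 0 on the log2 scale for 72 of 80 genes, and within 1 for all 80, compared with 5139 and 9961 of 11439 genes. Knockout-labelled livers were wholly above controls for 4 genes, Ndufa4l2, Ndufa6, Ndufs4 and Ndufv3, and wholly below for 5, Atp5j2, Atp5sl, Ndufb8, Sdhd and Uqcr11, beside 19.9% and 8.03% of all genes. Another scaling, by the median of ratios between libraries, moved the median of the 80 to -0.12 with 66 below 0, and the median of all genes to 0.01. Without control CT12 replicate 1 the median was 0.04 with 47 of 80 above 0, and without knockout-labelled CT12 replicate 1 it was 0.01 with 44 above 0, so leaving out either library turned its sign.

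Sdhd, the ubiquinone-binding anchor of complex II, had the lowest difference at CT12. It had 118, 104 and 105 RPKM in controls and 75.5, 78.1 and 104 RPKM in knockout-labelled livers. The knockout-labelled replicate 3, the library in which nearly every subunit gene was high, almost reached the controls. The log2 difference was -0.36 (SE 0.13, limma adjusted p = 0.115). It passed the threshold without that replicate (-0.50, limma adjusted p = 0.0268), and over the 21 alternative settings its adjusted p ran from 0.0268 to 0.286. Sdha, Sdhb and Sdhc differed by 0.01, -0.03 and 0.02.

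**Figure D3:**
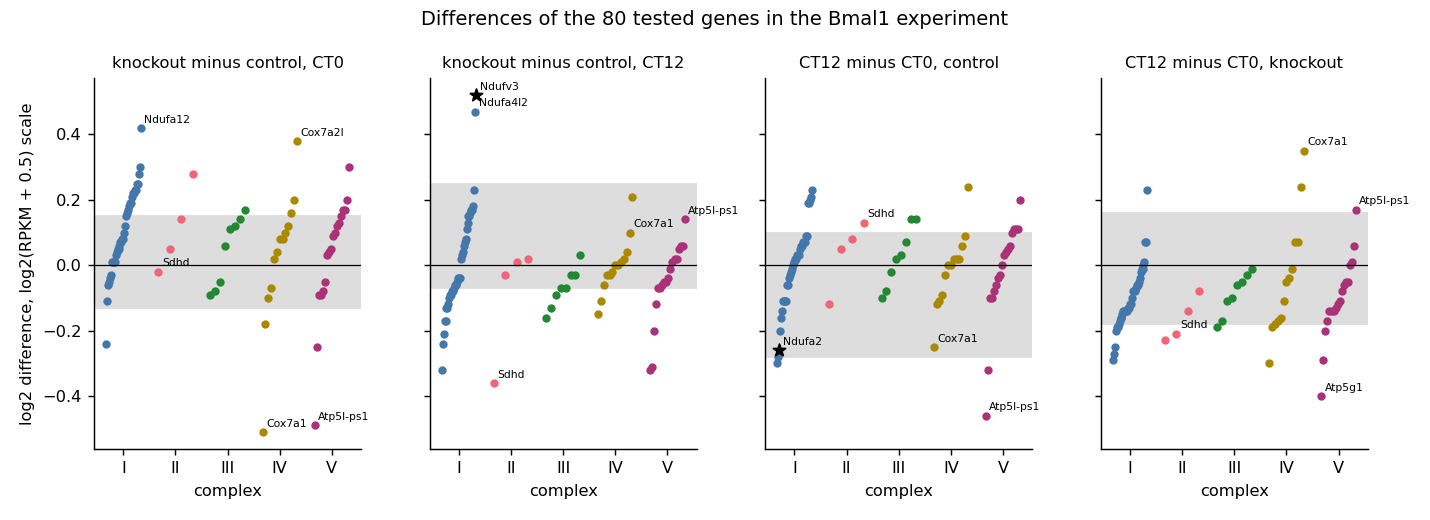
Log2 differences of the 80 tested genes in 4 comparisons of the Bmal1 experiment, by complex; KO-labelled livers are named knockout, stars mark an adjusted p under 0.05 and the grey band holds the middle of all genes, from the lower to the upper quartile. The stars are Ndufv3 between genotypes at CT12 (0.52) and Ndufa2 between times in control livers (-0.26).

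In control livers, CT12 and CT0 differed in 1 of the 80 genes, Ndufa2, where 10.8% of all genes passed and 7.43% were lower. At an unadjusted p under 0.05 there were 5 of the 80, beside 26.4% of all genes. Ndufa2, an accessory subunit of complex I with a thioredoxin-like fold, had 73, 67.2 and 70.4 RPKM at CT0 and 61.3, 56.1 and 58.5 RPKM at CT12. It fell by 0.26 on the log2 scale (SE 0.08, limma adjusted p = 0.0484), and the times did not overlap. This call stood at the edge: over the 21 alternative settings the adjusted p ran from 0.0396 to 0.134, with 6 under 0.05. In RefSeq the gene overlaps Tmco6, whose reads could be shared if strand was not used. Ndufa2 is 1 of 15 genes, of 81 found in the RefSeq gene table, that overlap another protein-coding gene.

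The other subunit genes showed little difference between times in control livers. The median was 0.02, against -0.08 over all genes. The complex medians were 0.01 (I), 0.07 (II), 0.03 (III), 0.00 (IV) and 0.01 (V). Without control CT12 replicate 1 the median of the 80 was -0.05, with 22 above 0. CT12 lay wholly above CT0 for 8 genes and wholly below for 6, beside 10.7% and 22.8% of all genes. Atp5e, the small epsilon subunit of the ATP synthase stalk, came next after Ndufa2, with 201, 202 and 197 RPKM at CT0 and 164, 159 and 159 RPKM at CT12 (log2 difference -0.32, limma adjusted p = 0.0540). Sdha to Sdhd differed by 0.05, 0.08, -0.12 and 0.13.

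In livers labelled Bmal1 knockout, none of the 80 genes differed between CT12 and CT0 by limma, where 1.9% of all genes did, and 5 had an unadjusted p under 0.05, all lower at CT12, beside 19.2% of all genes in either direction. The median was -0.11, against -0.00 over all genes, and 68 of 80 differences were below 0. All 4 genes of complex II and all 8 of complex III were below 0, with medians of -0.17 and -0.08. Without knockout-labelled CT0 replicate 1 the median was -0.03 and 50 of 80 were below 0. No gene had CT12 wholly above CT0 and 6 had it wholly below, beside 11.4% and 11.2% of all genes.

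The lowest of these was Atp5g1, the c subunit gene with an E-box close to its start. It had 231, 170 and 166 RPKM at CT0 and 137, 126 and 163 RPKM at CT12 in knockout-labelled livers, a log2 difference of -0.40 (SE 0.13, limma adjusted p = 0.131). In controls it had 168, 144 and 143 RPKM at CT0 and 144, 139 and 138 RPKM at CT12, and 231 RPKM came from the library that was high throughout. Between genotypes, Atp5g1 had means of 152 RPKM in controls and 189 RPKM in knockout-labelled livers at CT0, with overlap. At CT12 the means were 141 and 142 RPKM, and it did not pass the threshold at either time. The other 4 genes with an E-box differed between genotypes by -0.06 to 0.22 at CT0 and by -0.08 to 0.13 at CT12, none past the threshold. Cox5b, which binds zinc in complex IV, was next lowest in time (-0.30, SE 0.10). The highest were Cox7a1 (0.35, SE 0.38) and Cox4nb (0.24). Sdha to Sdhd differed by -0.08, -0.23, -0.14 and -0.21.

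The test of genotype by time found none of the 80 genes, where 1.31% of all genes passed by limma, and 3 had an unadjusted p under 0.05, beside 11.9% of all genes. The median was -0.10, against 0.07 over all genes, with 66 of 80 below 0. Without knockout-labelled CT0 replicate 1 the median was -0.03 with 48 below 0. The lowest were Ndufa12 (-0.46, SE 0.15, limma adjusted p = 0.212) and Ndufa5 (-0.39, SE 0.21). The highest were Atp5l-ps1 (0.63, SE 0.41) and Cox7a1 (0.60, SE 0.54), both at low levels. Sdha to Sdhd had -0.13, -0.31, -0.03 and -0.34. The 95% interval of the interaction lay within 0.5 of 0 for 53 genes and within 1 for 77.

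Markers of other cells moved with these comparisons and are given as measured. The 7 neutrophil markers summed to 69.9 to 223 RPKM in control CT0 livers, 19.3 to 29.1 in control CT12, 140 to 293 in knockout-labelled CT0 and 48.6 to 131 in knockout-labelled CT12 livers. By limma 4 of the 7 fell from CT0 to CT12 in controls and 5 of the 7 in knockout-labelled livers, and S100a8 and S100a9 were higher in knockout-labelled livers at CT12. The 8 hepatocyte markers summed to 45912 to 51228 RPKM in control CT0 livers and 38344 to 47070 RPKM in control CT12 livers. In knockout-labelled livers they summed to 31175 to 35321 RPKM at CT0 and 26860 to 30154 RPKM at CT12. Of these 8 only Alb passed the limma test, and it fell by 0.93 and 1.05 on the log2 scale at CT0 and CT12. Alb was the largest part of these sums, and the other hepatocyte markers went both ways. At CT0 Ass1 had 1658, 1446 and 1561 RPKM in controls and 3262, 1907 and 2485 RPKM in knockout-labelled livers. Serpina1a had 1726, 1586 and 1502 RPKM against 1180, 1320 and 1539 RPKM. The 6 endothelial markers summed to 65.8 to 76.4 RPKM at CT0 and 42.1 to 44.8 RPKM at CT12 in controls, and to 70.6 to 73.2 and 35 to 75.4 RPKM in knockout-labelled livers. The 8 Kupffer or macrophage markers in the tables had 167 to 215 and 98 to 146 RPKM in controls, against 150 to 218 and 109 to 179 RPKM. The 6 stellate or fibroblast markers had 131 to 185 and 96.5 to 114 RPKM in controls, against 168 to 201 and 120 to 155 RPKM. These 3 sums did not overlap between times in controls, nor did those of the 4 cholangiocyte markers (2.63 to 3.64 and 0.708 to 2.28 RPKM) and the 4 lymphocyte markers (5.76 to 6.52 and 3.6 to 5.01 RPKM), and the stellate sums did not overlap between genotypes at CT12. Of the stellate markers at CT12, Dcn (81, 67.1 and 70.2 against 87.7, 86.8 and 114 RPKM) and Reln were higher in knockout-labelled livers without overlap. Col1a1, Col1a2, Col3a1 and Lrat overlapped. At CT12, where Ndufv3 was called, the 6 erythroid markers summed to 107 to 190 RPKM in controls and 246 to 307 RPKM in knockout-labelled livers, also without overlap. The globin genes carried this sum, whereas Alas2 leaned the other way, with 36.3, 37.1 and 28.1 RPKM against 28.5, 33.1 and 22.6 RPKM. In bulk liver, fewer cells of a type and less RNA per cell cannot be told apart, and the part of these shifts in the subunit genes was not tested.

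**Figure D4:**
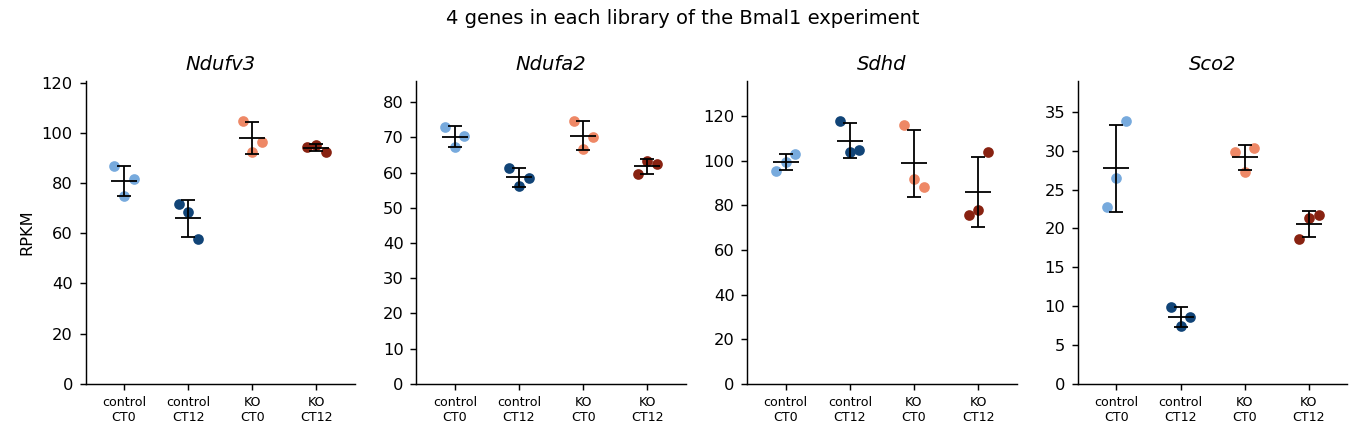
RPKM of Ndufv3, Ndufa2, Sdhd and the assembly factor Sco2 in each library of the Bmal1 experiment, with mean and SD (n = 3 per group); KO stands for livers labelled Bmal1 knockout. Ndufv3 and Sco2 are higher in KO than in control livers at CT12 without overlap, Ndufa2 is lower at CT12 than at CT0 in controls, and 1 KO library of Sdhd lies near the controls.

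Genes that build or regulate the complexes were read beside the subunits. Of 29 assembly factors tested, 3 rose in knockout-labelled livers at CT12, where 6.46% of all genes were higher: Sco2 and Cox19, copper carriers for complex IV, and Cox18, which inserts a complex IV subunit into the membrane. Sco2 had 9.93, 7.39 and 8.55 RPKM in controls at CT12 and 18.7, 21.4 and 21.7 RPKM in knockout-labelled livers, a rise of 1.22 on the log2 scale (2.33-fold, limma adjusted p = 0.000191). At CT0 both groups were higher and alike in range, with 22.8, 26.5 and 33.9 RPKM against 29.9, 27.3 and 30.3 RPKM. In controls Sco2 fell by 1.62 from CT0 to CT12 (limma adjusted p = 2.53e-05), and the 2 genotypes differed in that time course by 1.13 (SE 0.20, limma adjusted p = 0.0181).

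Sco2 is uncertain as a gene of its own. Its span in RefSeq overlaps Tymp and Ncaph2. Tymp, thymidine phosphorylase, had the same course, with 1.58 between genotypes at CT12 and -2.01 between times in controls, and reads from the shared span could count for both. The promoter window of Sco2 held an E-box 26 bases after its start (chr15:89373849-89373878, minus strand, GRCm38.p6), shown with the E-box in capitals.
Sco2: tcctggtcctggCACGTGcctccagtaggt

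Cox18 (0.56, limma adjusted p = 0.0187) and Cox19 (0.54, adjusted p = 0.0342) rose at CT12 as well. Between times in controls, the complex III assembly factors Ttc19 (0.54) and Uqcc (0.38) rose at CT12, and 10.8% of all genes were called there. At CT0 between genotypes, between times in knockout-labelled livers and in the Nr1d1 experiment, none of the 29 passed.

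Of 15 regulators, Ppara, the receptor that drives fat oxidation genes, fell in knockout-labelled livers at both times. It had 36.9, 37.5 and 37.1 RPKM in controls and 23, 25.4 and 23.2 RPKM at CT0, a log2 difference of -0.63 (limma adjusted p = 0.0253). At CT12 it had 56.6, 62.7 and 64.9 RPKM against 24.6, 28 and 36.1 RPKM, a log2 difference of -1.06 (limma adjusted p = 0.000167). From CT0 to CT12 in controls, where 3.4% of all genes were higher and 7.43% lower, 3 regulators rose, Ppara (0.71), Esrra (0.58), an orphan receptor that binds AAGGTCA, and Lrpprc (0.41), which stabilizes mitochondrial mRNAs, and Gabpb1, the partner of the ETS factor GABP, fell by 0.83. Of 18 genes of the TCA cycle and pyruvate dehydrogenase, Cs (citrate synthase) rose by 0.65 in knockout-labelled livers at CT12 (limma adjusted p = 0.0492). Of the genes outside the symbol rule, the subunit genes Ndufab1, Cyc1 and Usmg5 and the cytochrome c gene Cycs passed in no comparison. The median at CT12 between genotypes was 0.27 for the 79 cytosolic ribosomal proteins, of which 26 rose, 0.11 for the 76 mitochondrial ribosomal proteins, of which 1 rose, and 0.06 for the 38 proteasome genes, of which 1 rose and 1 fell. Over all genes the median was 0.09, and 6.46% were higher and 3.22% lower.

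In the Nr1d1 experiment the replicates were on different scales and were read apart. The RPKM of the subunit genes was higher in replicate 2 than in replicate 1 by a median of 4.89 times, against 4.15 times over all genes. The ratio ran from 2.38 for Ndufa3 to 12.2 for Uqcrq and was 10.4 for Cox8a and Atp5d. Cox8b, at 0 to 0.0848 RPKM in replicate 1, had 7.59, 8.38, 11.8 and 3.97 RPKM in the libraries of replicate 2 (control CT0, control CT12, knockout-labelled CT0 and knockout-labelled CT12). The 6 muscle markers summed to at most 2.55 RPKM in this experiment, but their values also differed by replicate. The muscle marker Ckm had 0 to 0.0112 RPKM in replicate 1 and 0.356 to 1.78 RPKM in replicate 2. The adipocyte marker Adipoq had 0 to 0.114 RPKM in replicate 1 and 2.97 to 3.86 RPKM in replicate 2, while the adipocyte marker Lep was at 0 throughout. The part of other tissue in the Cox8b values was not tested.

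Between libraries labelled Nr1d1 knockout and controls at CT0, no subunit gene passed the test with replicate as a block, nor did any gene (0% of 12738). By limma 1 of 81 had an unadjusted p under 0.05, beside 4.51% of all genes. Summed over the genes, replicate 1 had 9270 RPKM in the control and 9586 RPKM in the knockout-labelled library, and replicate 2 had 47491 and 56229 RPKM. The median log2 difference was 0.07 in replicate 1 and 0.25 in replicate 2, against -0.08 and -0.01 over all genes. It was above 0 in both replicates for 51 of 81 genes (63.0%), and for 17.8% of all genes. The complex medians ran from 0.02 to 0.13 in replicate 1 and from 0.20 to 0.29 in replicate 2. Marker sums of blood cells spread widely in these libraries. The 7 neutrophil markers summed to 4.05 and 85 RPKM in the control and 10.1 and 979 RPKM in the knockout-labelled libraries. Most of each sum was Lcn2 alone, with 2.89 and 83.4 RPKM against 8.95 and 954 RPKM. S100a9 had 0.662 and 1.4 RPKM against 0.604 and 14.1 RPKM. The 6 erythroid markers summed to 1022 and 2869 against 1604 and 11066 RPKM. The part of these markers in the subunit values was not tested.

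At CT12 the replicates parted. No subunit gene passed by limma, where 0.0393% of genes did, and none had an unadjusted p under 0.05, beside 4.55% of all genes. Replicate 1 had 9322 RPKM in the control and 10991 RPKM in the knockout-labelled library, and 76 of 81 differences were above 0, with a median of 0.20. Replicate 2 had 50881 and 49840 RPKM, with 34 above 0 and a median of -0.04. Over all genes the medians were -0.01 and 0.07. The median of the fit over both was 0.08, against 0.04 over all genes, and without knockout-labelled CT12 replicate 1 it was -0.03.

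Between times the medians of the 81 genes had the same sign in both replicates of controls and opposite signs in knockout-labelled libraries. In controls the median from CT0 to CT12 was 0.03 in replicate 1 and 0.12 in replicate 2, against 0.20 and -0.04 over all genes. Of the 81 genes, 47 (58.0%) were above 0 in both replicates of controls, beside 36.9% of all genes. In knockout-labelled libraries the median was 0.17 and -0.13, against 0.27 and 0.05 over all genes. In replicate 1 the medians of the 81 genes were thus under those of all genes at both labels. In replicate 2 the median was above that of all genes in controls and under it in knockout-labelled libraries. None of the 81 passed by limma in either, where 0.353% and 0.055% of genes did, and 3 and 2 had an unadjusted p under 0.05, beside 8.09% and 14.4% of all genes. The genotype by time test called none of the 81 and 0% of all genes by limma, with 1 of 81 at an unadjusted p under 0.05, beside 4.22% of all genes. Its median was -0.05, against 0.09 over all genes. In the fit with both replicates the median between times was 0.07 in controls and 0.02 in knockout-labelled libraries, against 0.08 and 0.16 over all genes. Both turned sign when libraries were scaled by the median of ratios, to -0.04 and -0.11, against 0.00 and 0.06 over all genes.

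With 2 livers per group the Nr1d1 intervals were wider, with a median SE of 0.19 for a difference between 2 groups, against 0.10 in the Bmal1 experiment. At CT0 between genotypes 16 of 81 genes had a 95% interval within 0.5 of 0 and 78 within 1. Ndufv3 had 68.5 and 267 RPKM in controls at CT12 and 86.8 and 294 RPKM in knockout-labelled libraries (log2 difference 0.24, 95% interval -0.18 to 0.65). It was higher in both replicates, as were 33 of the 81 genes (40.7%) and 31.0% of all genes at CT12. At CT0 it had 89.3 and 281 against 87.8 and 323 RPKM. Sdha to Sdhd differed between genotypes by 0.05, 0.22, 0.25 and 0.00 at CT0 and by 0.10, 0.10, 0.09 and -0.05 at CT12. Between times they differed by 0.16, 0.07, 0.06 and 0.10 in controls and by 0.21, -0.06, -0.10 and 0.04 in knockout-labelled libraries. Their genotype by time values were 0.05, -0.13, -0.16 and -0.06.

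The outermost genes of this experiment were mostly low ones. Cox7a1 had 2.51 and 8.68 RPKM in controls at CT0 and 0.755 and 4.29 RPKM in knockout-labelled libraries, lower in both replicates (log2 difference -1.10, SE 0.26, limma adjusted p = 0.873). Its genotype by time value was 1.49 (adjusted p = 0.931), with 1.01 and 6.56 RPKM in controls and 2.22 and 6.27 RPKM in knockout-labelled libraries at CT12. Atp5s (0.59) and Ndufa10 (0.38) were highest at CT0, and Uqcrq (-0.17) was next lowest. At CT12 the highest were Cox7a1 (0.39) and Ndufa4l2 (0.28) and the lowest Cox8b (-0.61) and Atp5s (-0.27). From CT0 to CT12 in controls, Atp5l-ps1 (0.92) and Atp5s (0.69) were highest and Cox7a1 (-0.69) and Ndufv3 (-0.23) lowest. In knockout-labelled libraries Cox7a1 (0.81) and Atp5l-ps1 (0.59) were highest and Cox8b (-0.73) and Ndufs7 (-0.26) lowest. In the interaction Uqcrq (0.36) followed Cox7a1, and Cox8b and Atp5s (both -0.86) were lowest.

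**Figure D5:**
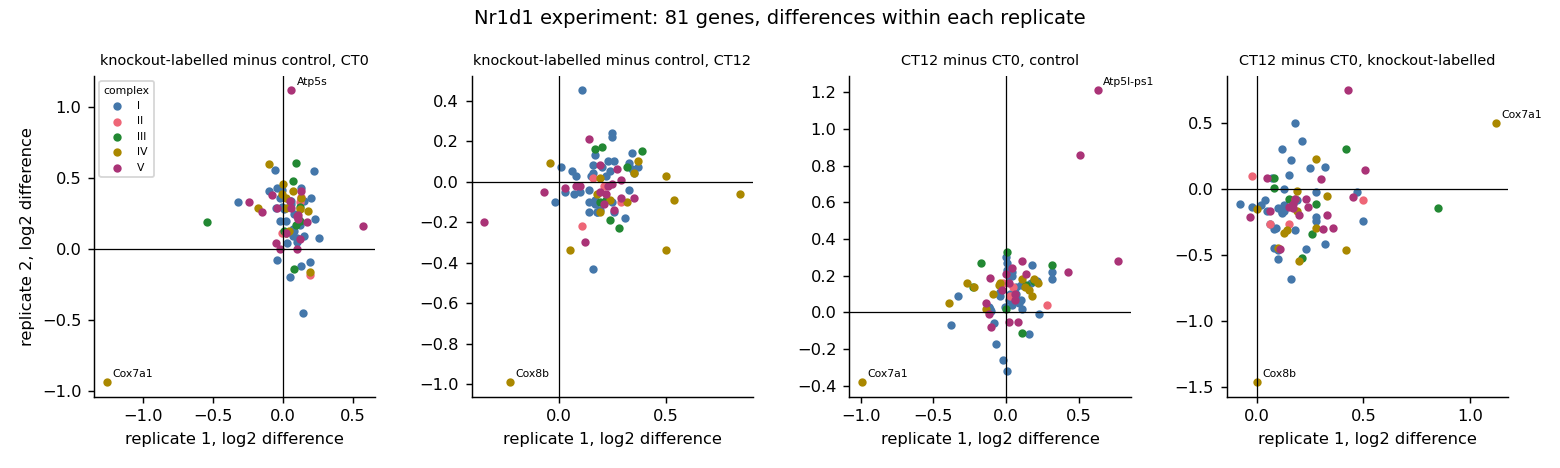
Log2 differences of the 81 genes tested in the Nr1d1 experiment, replicate 1 against replicate 2, for genotype at CT0 and CT12 and for time in control and in knockout-labelled libraries, coloured by complex. At CT0 most genes (51 of 81) lie above 0 in both replicates, while at CT12 and for time in knockout-labelled libraries most are above 0 in replicate 1 and below 0 in replicate 2.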

How the data were processed

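RNA from 20 mouse livers was sequenced after poly(A) selection, and the deposited values are RPKM per transcript, per the labels. TopHat2, Bowtie and bedtools 2.19.1 were used, on build mm9, per the submitters' processing notes. Bowtie is listed for all libraries but those of replicate 2 in the Nr1d1 series. The best expressed of a gene's transcripts stood for it (46585 transcripts, 22322 symbols). Genes with a mean of at least 0.5 RPKM in an experiment were tested as log2(RPKM + 0.5), so fold changes of low genes are understated. The read number behind the RPKM was recovered from whole-read steps, and 99.4 to 100.0% of the values checked were whole within 0.05 read. The intervals cover the spread between livers only.

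Each experiment was fitted with limma 3.58.1 (R 4.3.3) across all its genes, with a mean trend and 4 group means, and p-values were adjusted by Benjamini-Hochberg over all genes tested (threshold 0.05, two-sided). The Nr1d1 fit also had the replicate number as a block, since replicate 2 alone is paired-end. Same-numbered libraries deviated together in 12 of 12 pairs (correlation 0.82 to 0.88). With 2 livers per group the pairs of replicate 2 mirror those of replicate 1, so the 12 are not separate checks. The Bmal1 fit had no block (correlation -0.06 to 0.12, 2 of 18 pairs over 0.1). Genes were named by rule: per comparison and complex, up to 2 called genes in each direction, or, with no call, the 2 highest and 2 lowest; Sdha to Sdhd always; the isoform sets as levels; and up to 4 called genes of each related list. Cox7a2l, Sdhd beyond its differences, Atp5e, the E-box genes and the genes whose groups did not overlap were added after their values were seen. The members and lists were chosen with earlier results of these data known. The other lists were assembly factors, regulators, the TCA cycle, other subunits with cytochrome c, ribosomal and proteasome families and cell type markers. Of 38 assembly factors and 17 other subunits listed, 29 and 4 were in the tables. The scripts were tested on simulated data. Alternatives were other pseudocounts, filters, scalings, transcript sums, blocks, groups and left-out replicates. The 6 files of 4C contacts were not used here. 1 gene of the TCA cycle list is not reported here. Promoter sequences are RefSeq, GRCm38.p6, and share no coordinates with the mm9 tables. Python 3.11.15, pandas 2.3.3, numpy 2.4.6 and matplotlib 3.10.9 were used.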

Additional observations from a re-analysis of the deposited data

Results flagged for a closer look

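The assembly factor Sco2 differed between genotypes in its time course in the Bmal1 experiment, by 1.13 on the log2 scale (SE 0.20, 95% interval 0.69 to 1.57, limma adjusted p = 0.0181). From CT0 to CT12 it fell by 1.62 in control livers, whereas knockout-labelled livers had 29.9, 27.3 and 30.3 RPKM at CT0 and 18.7, 21.4 and 21.7 RPKM at CT12. Over 20 alternative settings the adjusted p for Sco2 ran from 0.0117 to 0.0552, and 17 were under 0.05. The overlapping gene Tymp had 1.43 in the same test (limma adjusted p = 0.0116), and how far the 2 genes share reads was not tested.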

How the results depend on the processing

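The call of Ndufv3 at CT12 held in all 21 alternative settings (log2 difference 0.42 to 0.58, limma adjusted p 0.00417 to 0.0214). Neither called gene changed direction, but small medians did: in the Nr1d1 experiment those between times went from 0.07 to -0.04 in controls and from 0.02 to -0.11 in knockout-labelled libraries with median of ratios scaling. In the Bmal1 experiment, without control CT12 replicate 1, the median between genotypes at CT12 went from -0.03 to 0.04 and that between times in controls from 0.02 to -0.05. Between genotypes at CT0, 1 gene was called in place of 0 with median of ratios scaling and 1 with quantile normalization, Ndufa12 in both, and leaving out a replicate gave 0 to 1. At CT12, 3 genes were called in place of 1 with median of ratios scaling (Ndufv3, Ndufb8 and Sdhd) and 2 with quantile normalization (Ndufv3 and Sdhd). Leaving out a replicate gave 1 to 3, the 3 without knockout-labelled CT12 replicate 3. Between times in controls, 1 call became 2 with a filter at a mean of 5 RPKM, 2 with quantile normalization, 0 with median of ratios scaling and 0 with sums over transcripts, and leaving out a replicate gave 0 to 2. Comparing only those 2 groups gave 1 call, but of Atp5e and not Ndufa2. With a replicate block in the Bmal1 fit, that count was 0 in place of 1, and no other count of calls changed. The Bmal1 numbers pair no samples by the check above. With no replicate block in the Nr1d1 fit, 0 genes were called in each of the 5 comparisons, as with it. Counts without the 5 genes that are not subunits, an alternative chosen after seeing the data, kept the same 2 calls, Ndufv3 and Ndufa2. The cause of these changes was not tested. Isoforms under a mean of 0.5 RPKM could not be compared at this depth.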
